A study of Drosophila melanogaster with 12 samples.

Results

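RFeSP, teq (Tequila in the study) and lola are 3 genes that the array measures with more than 1 probe set, a group of short probes designed against 1 or more transcripts, and whose probe sets gave different genotype values. All probe sets that the array annotation pairs with 1 of these symbols alone were taken, which gave 19 probe sets, 2 for RFeSP, 2 for teq and 15 for lola, of 18769 probe sets on the array that are not controls. Of 11982 genes with a probe set of their own, 1094 have 2 or more. The 3 genes were selected on the difference between tko25t and wild type in these same arrays, so every genotype value of a member below is a description and carries no test. Tests of members are confined to the difference between the sexes, which was not the ground of the choice. The genes were chosen with earlier results of these data known, so these tests are not fully independent of the choice.

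The 4 groups were male tko25t, male wild type, female tko25t and female wild type flies, with 3 arrays each. The flies were 1 day old and the females virgin, and RNA came from whole bodies. All were F1 progeny of a Canton S mother and an Oregon R father, with tko25t carried by both parents of the mutants after repeated backcrossing of the mutation into both strains. tko25t is a point mutation in the gene for mitoribosomal protein S12, which lies on the X chromosome. Mutant males were therefore hemizygous and mutant females homozygous. Mutant flies have a shortage of respiratory enzymes, slow development and seizures after mechanical shock. No flies were shared between arrays. Because 3 crosses supplied flies of both sexes, an array of males and one of females can come from the same cross, which the tests of sex did not model. In whole flies, fewer cells of a type and less RNA per cell cannot be told apart.

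Rieske iron-sulfur protein, the product of RFeSP, is a subunit of respiratory complex III that hands electrons on to cytochrome c1 through its iron-sulfur cluster. The gene is essential, and splicing gives variants that differ at the C-terminus. Of these, the study assigns probe set 1641174_at to the mRNA of isoform A, which lacks part of the conserved Rieske domain. teq encodes a large secreted serine protease with chitin-binding domains, the fly counterpart of mammalian neurotrypsin, and is needed for long-term memory of odours. lola encodes a family of transcription factors that share a BTB dimerization domain at the N-terminus and differ in the zinc fingers that splicing joins to it, and it is best known for its part in axon guidance. RefSeq (Release 6) lists 3 transcripts of RFeSP, 4 of teq and 25 of lola. On this array type the suffix _a_at marks a probe set that matches several transcripts of 1 gene, _s_at one that matches transcripts of more than 1 gene or of several variants, and a plain _at a unique match. The files do not tell which transcript each probe set detects, and the signals of 2 probe sets cannot be set against each other as levels, since probes differ in brightness.

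Values are MAS5 signals, the linear intensity that the Affymetrix software computes for a probe set. For the tests an offset of 11.6 was added before log2, which pulls the differences of dim probe sets towards 0. The 25th percentile of signal lay at 12 to 14.2 on male tko25t arrays, 14.8 to 17.1 on male wild-type arrays, 9.70 to 10.5 on female tko25t arrays and 9.30 to 11.2 on female wild-type arrays. A probe set was tested in a sex where its mean signal was among the highest 53% in males (10045 probe sets) or 52% in females (9855), and for sex where it passed either filter (11566). All probe sets of RFeSP and teq passed both filters. Of the 15 of lola, 10 passed in males, 14 in females and 14 for sex.

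The arrays differ in some respects beside genotype. The 18S ribosomal RNA probe set of the middle of the molecule gave 273 ± 81.7 in male tko25t and 4009 ± 99.2 in male wild-type arrays, against 126 ± 54.8 in female tko25t and 98.4 ± 11.4 in female wild-type arrays (SD, n = 3 each), so in males the genotype cannot be told apart from whatever set this signal. The summed signal of 11 eggshell and yolk genes found of 12 fixed was 0.279% to 0.586% of the female mean on male tko25t arrays and 0.555% to 7.12% on male wild-type arrays. The male wild-type arrays of replicates 1 and 2 and the female tko25t array of replicate 1 carried raised transcripts of the other sex, the female one with 4.28% of the male mean of 8 testis genes and 6.34% of that of 7 accessory gland genes. The part of these differences in the values below was not tested, and for some of the values the result without these 3 arrays is given. Leaving them out keeps 1 male wild-type and 2 female tko25t arrays, so that the lone array is assumed to vary like the other groups and a call lost there may only reflect the smaller number.

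The 2 probe sets of RFeSP stood apart in genotype in both sexes. Probe set 1641174_at had signals of 14.6, 28.3 and 17.3 in tko25t males, against 413.8, 566.4 and 666.0 in wild-type males. In females the signals were 19.5, 16.0 and 19.0 with tko25t, against 510.7, 547.6 and 745.3 in wild type. All 6 mutant arrays therefore lay far below all 6 wild-type arrays, close to the lower quartile of signal. The wild-type mean was 27.3 times the tko25t mean in males and 33.1 times in females, a log2 fold change (tko25t minus wild type) of -4.14 (standard error 0.21) in males and -4.35 (standard error 0.16) in females with the offset. Because the mutant signals are close to the dim end of each array, these sizes depend on the offset, and with an offset of 2.9 they were -4.60 and -4.83 and with one of 46.4 they were -3.14 and -3.31.

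Probe set 1631856_a_at of the same gene gave the other picture. Its signals were 3407.0, 3741.9 and 3104.3 in tko25t males, against 3523.4, 3677.4 and 3761.3 in wild-type males. In females they were 3076.0, 2446.2 and 2986.5 with tko25t, against 2478.8, 2637.7 and 3432.0 in wild type. The genotypes overlapped in both sexes, and the log2 fold change was -0.10 (standard error 0.10) in males and 0.00 (standard error 0.15) in females. Over the 12 arrays the log2 signals of the 2 probe sets had a Pearson correlation of 0.16, and of 0.72 once each group's mean was taken out. These are descriptions over arrays that share their groups, and the second says that within a group the arrays brighter in one probe set tended to be brighter in the other.

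**Figure D1:**
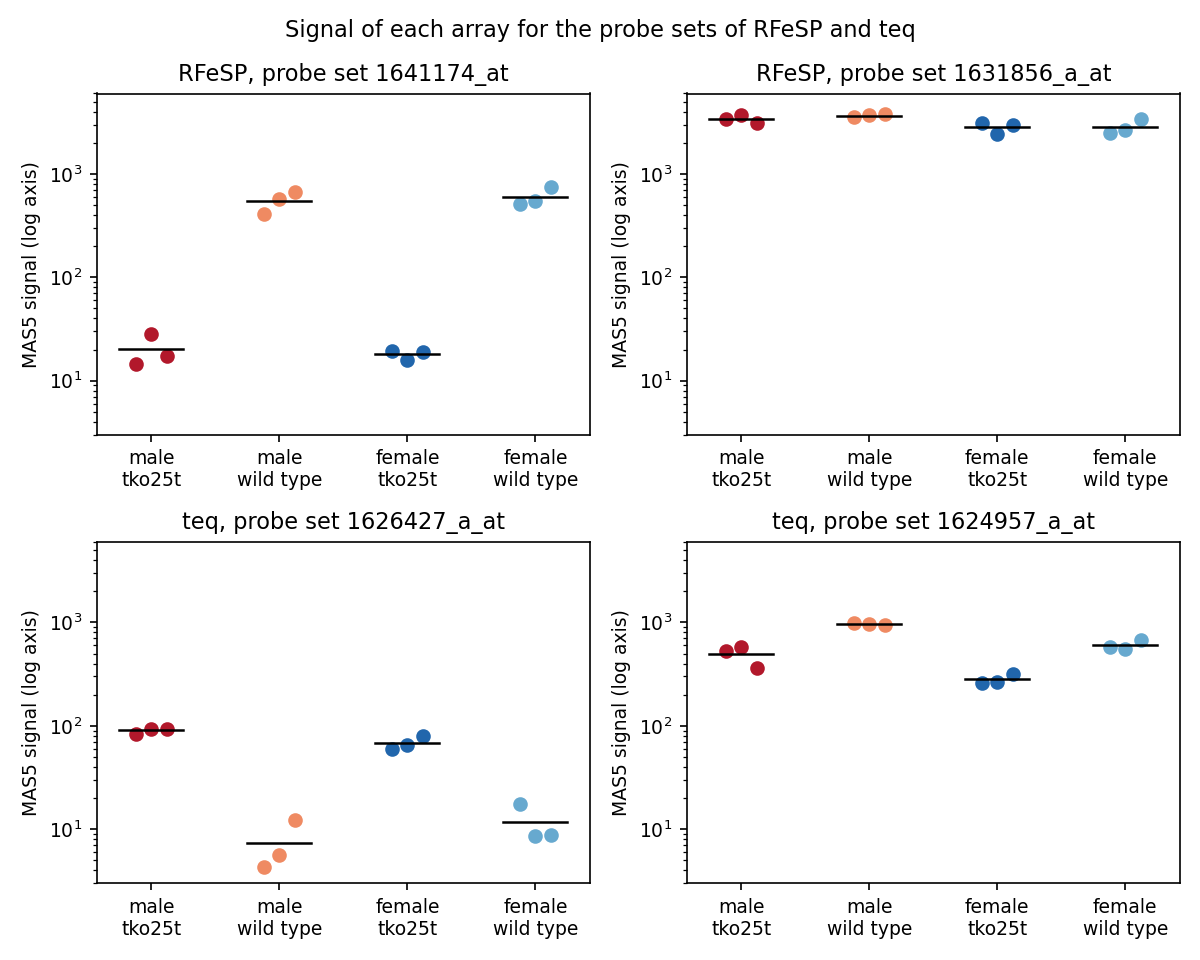
MAS5 signal of each array (points, log axis) and the group mean (line) for both probe sets of RFeSP and of teq, with 3 arrays in each of the male tko25t, male wild type, female tko25t and female wild type groups. The tko25t arrays lie below wild type in 1641174_at (14.6 to 28.3 against 413.8 to 745.3) and in 1624957_a_at, above it in 1626427_a_at, and overlap it in 1631856_a_at.

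The probe sets of teq ran in opposite directions. Probe set 1626427_a_at was brighter in mutants, with signals of 83.6, 93.5 and 94.0 in tko25t males, against 4.30, 5.60 and 12.3 in wild-type males. In females it gave 60.2, 64.7 and 78.9 with tko25t, against 17.6, 8.50 and 8.80 in wild type. The mutant and wild-type arrays did not overlap in either sex. Mean signal in tko25t was 12.2-fold that of wild type in males and 5.84-fold that of wild type in females, with log2 fold changes of 2.45 (standard error 0.25) and 1.79 (standard error 0.21). Each wild-type male signal was below the lower quartile of its array group, and those of wild-type females were around it, so the wild-type level is near the limit of what the array resolves. With an offset of 46.4 the log2 fold changes were 1.35 in males and 0.98 in females, and with one of 2.9 they were 3.25 and 2.33. Without the 3 arrays with raised other-sex transcripts the male value was 2.09.

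Probe set 1624957_a_at was dimmer in mutants. Its signals were 533.3, 579.0 and 360.1 in tko25t males, against 982.4, 960.8 and 937.9 in wild-type males. In females they were 258.5, 266.3 and 316.9 with tko25t, against 573.2, 547.8 and 675.7 in wild type. Again the genotypes did not overlap in either sex, now with the mutants low. The wild-type mean was 1.96 times the tko25t mean in males and 2.13 times in females, with log2 fold changes of -0.98 (standard error 0.16) and -1.06 (standard error 0.13). Between the 2 probe sets the correlation over the 12 arrays was -0.75, and -0.04 with the group means taken out, so their opposition lies between the groups and not among arrays of a group.

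The 15 probe sets of lola gave genotype values on both sides of 0. In males 3 probe sets were higher in every tko25t array than in any wild-type array (1629523_at, 1640280_at and 1641609_at), 1 was lower (1624729_at) and 11 overlapped. Among all probe sets tested in males, 15.5% were higher in this sense and 18.5% lower. In females 2 were higher (1629523_at and 1641609_at), 1 was lower (1627324_at) and 12 overlapped, where the shares of all probe sets tested were 9.62% and 10.6%. The genotype was the ground for choosing the gene, so nothing is read from these counts. Over the lola probe sets tested, the median log2 fold change was 0.12 in males and -0.02 in females, beside -0.01 and -0.04 for all probe sets tested.

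Probe set 1624729_at had the lowest value of the gene. Its signals were 64.5, 54.0 and 46.5 in tko25t males, against 121.5, 129.9 and 104.9 in wild-type males, and 89.0, 97.9 and 147.9 in tko25t females, against 138.7, 100.9 and 165.6 in wild-type females. The male groups did not overlap and the female groups did. The wild-type mean was 2.16 times the tko25t mean in males, a log2 fold change of -0.97 (standard error 0.16), and 1.21 times in females, a log2 fold change of -0.26 (standard error 0.23).

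Probe set 1641609_at ran the other way. Its signals were 88.9, 88.5 and 93.3 in tko25t males, against 64.5, 55.1 and 56.1 in wild-type males, and 77.2, 77.7 and 84.4 in tko25t females, against 71.9, 61.7 and 59.6 in wild-type females. The genotypes were apart in both sexes, by 1.54-fold in males and 1.24-fold in females, with log2 fold changes of 0.54 (standard error 0.14) and 0.27 (standard error 0.13). Smaller differences of the same direction stood in 1629523_at, with log2 fold changes of 0.27 in males and 0.15 in females, and in 1640280_at, with 0.33 and 0.25. With quantile normalization of the arrays these 3 were 0.75, 0.42 and 0.49 in males. Without the 3 arrays with raised other-sex transcripts, 1629523_at had 0.40 and 1640280_at had 0.44 in males.

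In 1627324_at the wild-type females were the higher group, with 42.5, 69.4 and 58.1 in tko25t females, against 81.1, 90.9 and 70.4 in wild-type females (log2 fold change -0.45, standard error 0.19). The male signals of this probe set, 31.5, 27.0 and 29.9 with tko25t against 36.0, 25.2 and 51.4 in wild type, were under the filter. The highest male value, a log2 difference of 0.97 in 1623411_at, also came from a probe set under the male filter. It had 41.3, 54.0 and 35.7 in tko25t males, against 6.30, 10.8 and 42.4 in wild-type males, and 1 of the wild-type arrays was as bright as the mutants. In females the same probe set gave 94.5, 106.7 and 116.8 with tko25t, against 112.6, 141.3 and 90.7 in wild type. The remaining 9 lola probe sets overlapped in both sexes, with log2 differences between -0.41 and 0.16.

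**Figure D2:**
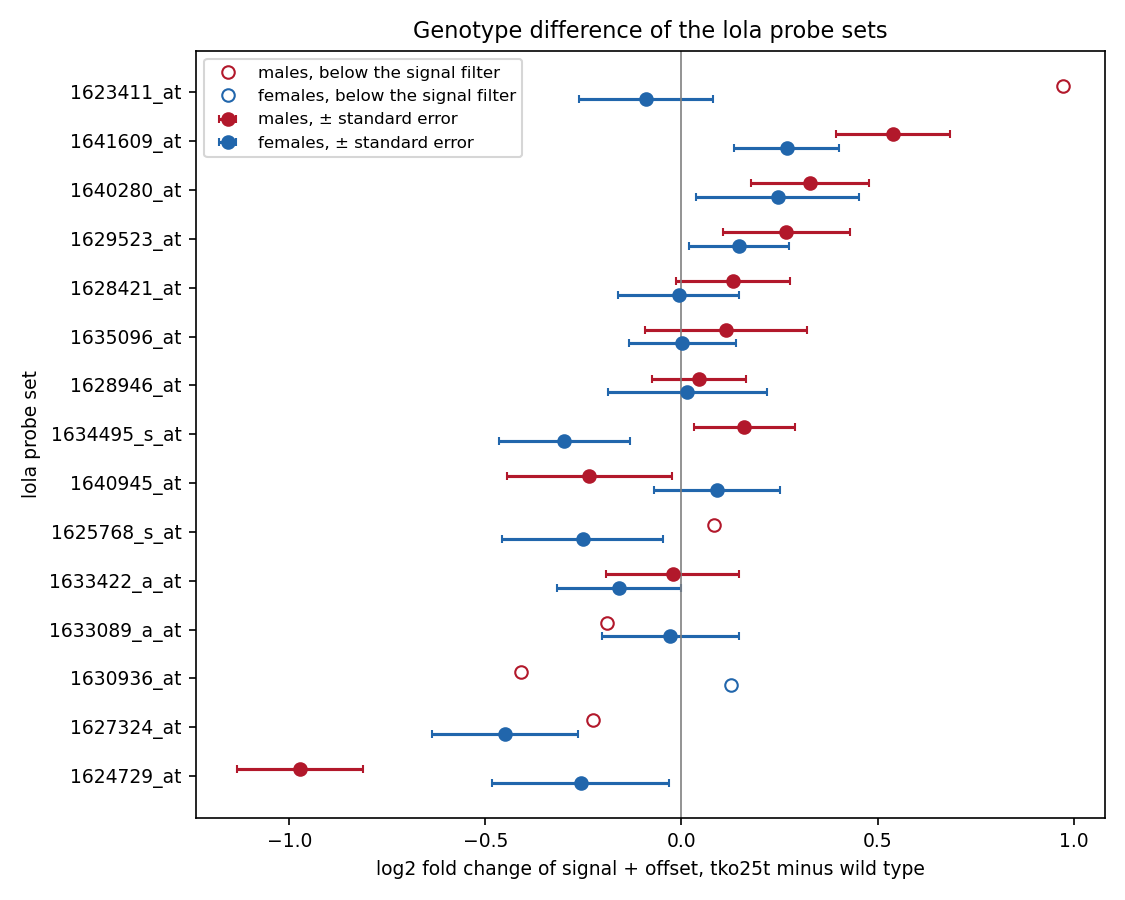
Log2 fold change (tko25t minus wild type, signal plus offset) of each of the 15 lola probe sets in males and females, with the standard error from the fit of 6 arrays a sex and open points for probe sets under the signal filter of that sex. Values run from -0.97 (1624729_at, males) to 0.97 (1623411_at, males, under the filter), and 10 of the 15 probe sets overlap between the genotypes in both sexes.

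The difference between the probe sets of a gene was set beside the same measure over the array. For each of the 525 genes with 2 or more probe sets tested, the lowest log2 fold change, averaged over the sexes, was taken from the highest. Its median was 0.21 and its 90th percentile 0.54. RFeSP had 4.20, the highest of all, teq had 3.14 and ranked 3, and lola had 1.06 and ranked 6. The gene CG5953 stood between RFeSP and teq with 3.49, and BtbVII (1.17) and gkt (1.06) stood just above lola. A gene with more probe sets has more room for a wide range. Among the 8 genes with 5 or more probe sets tested the range ran from 0.44 to 1.06, with lola at the top. Its 1.06 rests on the dim 1623411_at at the upper end and ran from 0.92 to 1.33 when single arrays were left out.

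**Figure D3:**
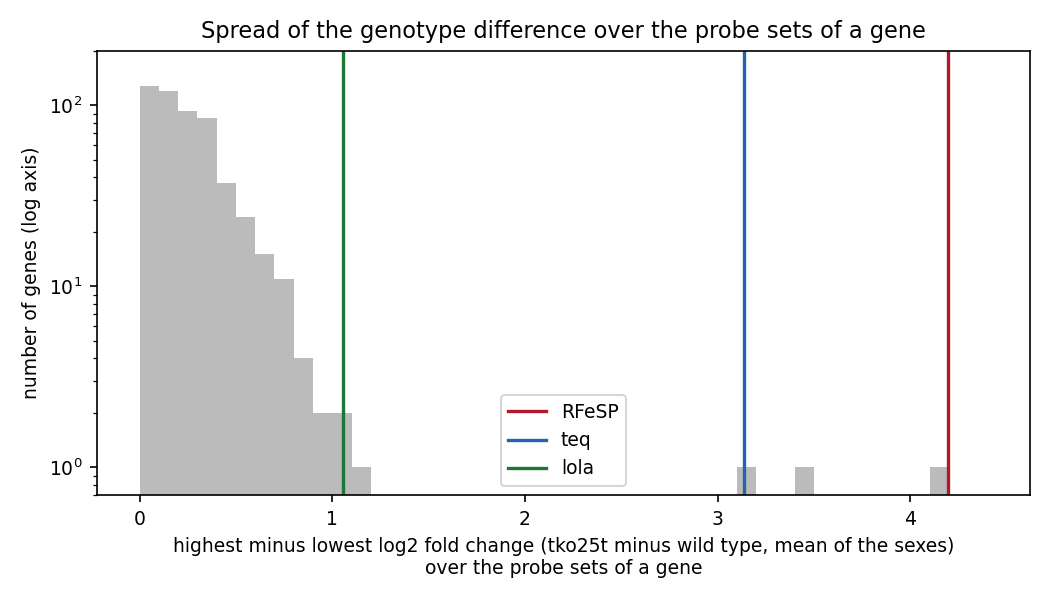
Number of genes (log axis) by the highest minus the lowest log2 fold change (tko25t minus wild type, mean of both sexes) over the probe sets of a gene, for the 525 genes with 2 or more probe sets tested. The lines mark lola (1.06), teq (3.14) and RFeSP (4.20), and the median gene has 0.21.

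Sex was not the ground on which the genes were chosen, though earlier results of these data were known. Male minus female differences, averaged over the genotypes, were fitted with limma on all 12 arrays, with p-values adjusted by Benjamini-Hochberg over 11566 probe sets. Sex differences were the rule on these whole-fly arrays, where 32.2% of probe sets were higher in males and 46.2% higher in females, 78.4% in all. The summed signal of the eggshell and yolk genes ran from 202 to 5147 in males and from 62966 to 80583 in females, that of the testis genes from 18817 to 28514 in males and from 140 to 1025 in females, and the part of the reproductive organs in the sex differences below was not tested.

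For RFeSP, probe set 1631856_a_at was higher in males, with a mean of 3536 ± 252 in males and 2843 ± 388 in females (SD, n = 6 each). The log2 difference was 0.32 (standard error 0.09, limma adjusted p = 0.00721). Males ran from 3104.3 to 3761.3 and females from 2446.2 to 3432.0, so the ranges overlapped, and within tko25t arrays alone the difference was 0.27 and did not pass (adjusted p = 0.0896). Probe set 1641174_at, with a log2 sex difference of -0.03 (standard error 0.15, limma adjusted p = 0.837), gave no detectable difference. Whether the sex difference departs from that of the other probe sets of the gene was tested with limma's diffSplice, over the 1222 probe sets of the 525 genes, of which 46.6% departed. With 2 probe sets both share 1 test, and for RFeSP it did not pass (log2 difference 0.36 in size, adjusted p = 0.127), while with an offset of 46.4 it lay just under the threshold (adjusted p = 0.04999).

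The teq probe set 1624957_a_at was higher in males within each genotype. Its means were 490.8 ± 115 in tko25t males and 281 ± 31.7 in tko25t females, and 960.4 ± 22.3 in wild-type males and 599 ± 67.7 in wild-type females (SD, n = 3 each). The log2 sex difference was 0.72 (standard error 0.11, limma adjusted p = 5.83e-05), with 0.76 in tko25t alone and 0.68 in wild type alone. Probe set 1626427_a_at had a log2 difference of 0.04 (standard error 0.15, limma adjusted p = 0.827). The 2 differed from each other in their sex effect (diffSplice adjusted p = 0.00413), a difference of 0.68 in size from the gene's other probe set, which did not pass in tko25t arrays alone (0.40, adjusted p = 0.289) or without the 3 arrays with raised other-sex transcripts (0.50, adjusted p = 0.106). The dim wild-type signals of 1626427_a_at leave little room to see a sex difference in that genotype.

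The sexes were far apart in some lola probe sets, while others showed no detectable difference. Of the 14 tested, 4 passed the filter through females alone and so could hardly be higher in males, and 3 of these were called higher in females. Of the 10 that passed the filter of both sexes, 5 were higher in females, 0 were higher in males and 5 did not pass. Among the 11566 probe sets that passed either filter, 46.2% were higher in females and 32.2% in males. That wider set includes probe sets let in by 1 sex alone, so the shares are not a like comparison. Over all 14, by limma without adjustment, 1 probe set was higher in males and 8 in females at a p under 0.05. The 1 is 1628946_at, with a log2 difference of 0.27 (limma adjusted p = 0.0614), which passed with quantile normalization (log2 difference 0.45, limma adjusted p = 0.00585), and also without female tko25t replicate 3 (0.35, adjusted p = 0.0231) or female wild-type replicate 3 (0.34, adjusted p = 0.0254).

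Probe set 1625768_s_at gave the largest sex difference of the gene. Its signals were 21.5, 13.2 and 22.3 in tko25t males and 29.8, 8.30 and 16.8 in wild-type males, near the lower quartile of signal, against 837.1, 1377.1 and 1016.7 in tko25t females and 1383.4, 1433.2 and 1003.4 in wild-type females. The male mean was under the signal filter of males, so the size of the difference is a bound. Against that filter's lowest mean signal, 43.7, the female mean was at least 26.9-fold higher. The fitted log2 difference was -5.30 (standard error 0.18) with the offset. This probe set entered the test through females alone, which largely set its direction, so no p-value is given. Among wild-type males, the 2 arrays with raised eggshell transcripts had 29.8 and 8.30 and the other one 16.8. The part of other-sex transcripts in this probe set was not tested.

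Another 3 probe sets kept the sexes apart by a wide margin. Probe set 1634495_s_at ran from 103.5 to 133.9 in males (median 114.1) and from 395.6 to 640.6 in females (median 539.1), 4.47-fold higher in females (log2 difference -2.04, standard error 0.11, limma adjusted p = 1.64e-09). Probe set 1623411_at ran from 6.30 to 54.0 in males and from 90.7 to 141.3 in females, at least 2.53-fold higher in females by the same bound, since males were under the filter. Its fitted log2 difference was -1.63 (standard error 0.23), given without a p-value for the same reason. Probe set 1640280_at ran from 57.2 to 86.9 in males and from 179.6 to 321.4 in females, 3.27-fold higher in females (log2 difference -1.55, standard error 0.13, limma adjusted p = 1.65e-07). In these 3, and in 1633422_a_at with a log2 difference of -0.85, no male array reached the lowest female one.

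The other calls were smaller. They were 1627324_at, also under the male filter, with a log2 difference of -0.83, 1624729_at with -0.51 (limma adjusted p = 0.00640) and 1629523_at with -0.39 (limma adjusted p = 0.00172). For 1624729_at the log2 sex difference was -0.87 in tko25t alone and -0.15 in wild type alone, where it did not pass (limma adjusted p = 0.528). The gap between these values is that between the sexes in the genotype difference. The gene was chosen on genotype, so this gap is a description and carries no test. The male tko25t arrays are the low group of this probe set. The probe sets that did not pass beside 1628946_at were 1628421_at, 1640945_at, 1633089_a_at, 1635096_at and 1641609_at, with log2 differences between -0.21 and 0.02. With quantile normalization 1633089_a_at was called as well (-0.44), but it entered the test through females alone. Probe set 1630936_at was too dim to be tested, with a median of 6 in males and 33.2 in females. A probe set annotated to both lola and pre-lola-G, 1637581_at, was higher in females as well, with a log2 difference of -1.72 (standard error 0.11).

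**Figure D4:**
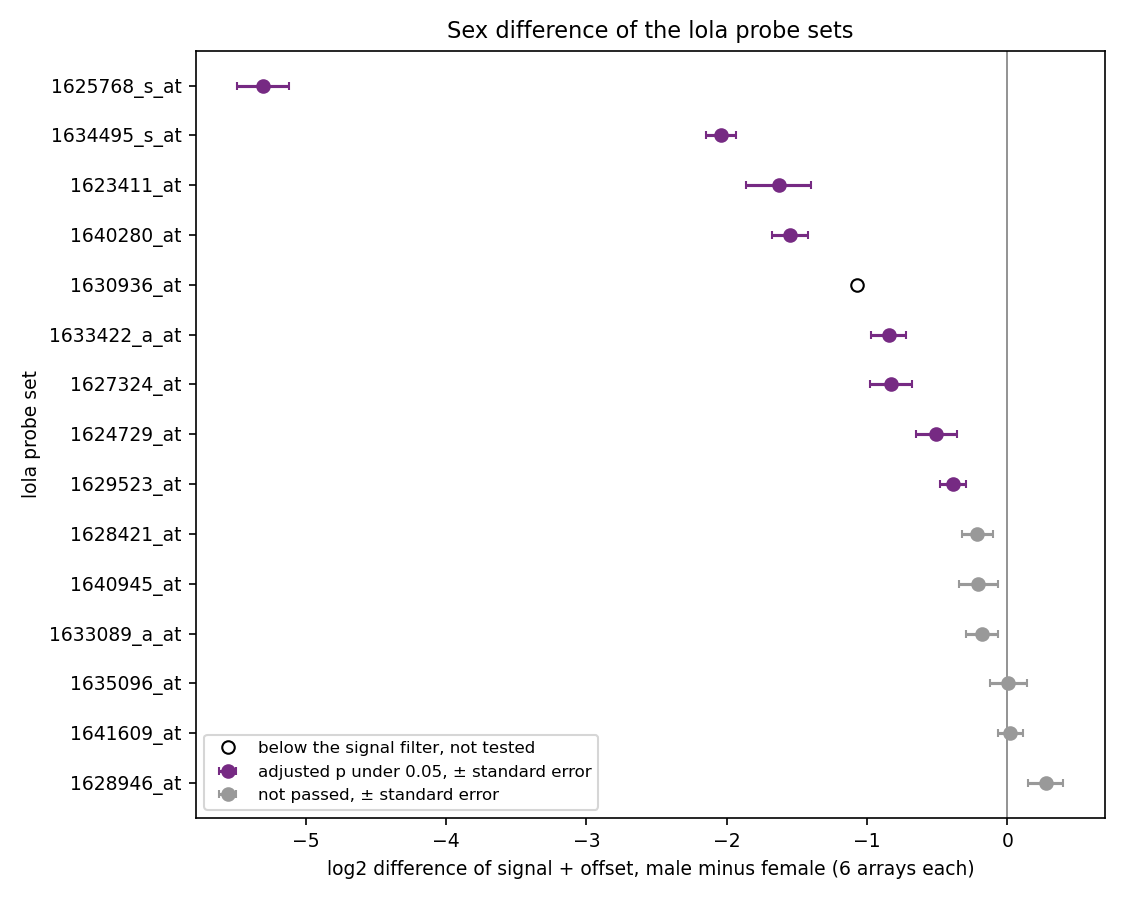
Log2 difference between the sexes (male minus female, signal plus offset, averaged over the genotypes) of the 15 lola probe sets with the standard error from the fit of 12 arrays. Purple points passed at an adjusted p under 0.05, grey points did not, and the open point was under the signal filter. The 4 probe sets tested through the female filter alone could hardly be higher in males. Probe set 1625768_s_at lies at -5.30, while 6 probe sets lie between -0.21 and 0.27 without passing.

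Within lola, 12 of 14 probe sets departed from the sex difference of the others (diffSplice adjusted p under 0.05, beside 46.6% of the 1222 tested), 8 of them towards males and 4 towards females, with the 4 probe sets that passed through females alone included. The 4 towards females were 1625768_s_at, 1634495_s_at, 1623411_at and 1640280_at. Because 1625768_s_at pulls the mean of the gene down, the comparison was repeated without it, a choice made after these values were seen, and 9 of the other 13 then departed, with 1624729_at (adjusted p = 0.504) and 1629523_at (adjusted p = 0.141) no longer among them. That repeat kept the other probe sets that passed through females alone. Both counts therefore depend on the filter, and nothing is read from their size beside the share over the array. The count was 10 of 14 in tko25t arrays alone and also without the 3 arrays with raised other-sex transcripts, since 1623411_at (adjusted p = 0.476 and 0.201) and 1624729_at (adjusted p = 0.951 and 0.0599) did not pass in either.

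The 105 pairs of lola probe sets had correlations over the 12 arrays between -0.67 and 0.99, with a median of 0.40, and 78 were positive and 27 negative. With the group means taken out the median was 0.13, between -0.67 and 0.83. The points share their arrays, and the sexes are the main division among them, so these values are a description.

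The partners of each gene were counted from lists of related genes. Over the array 5.54% of probe sets passed with a higher signal and 5.65% with a lower one in tko25t males, and 1.44% higher and 0.609% lower in tko25t females. In complex III and its cofactors, 14 genes beside RFeSP were listed, of which 9 were matched to a probe set. The others, core subunits among them, have no value here. Of the 8 tested in males, 1 was higher in tko25t, 0 were lower and 7 did not pass. This was Ttc19, whose counterpart in mammals clears fragments of the Rieske protein from complex III, at 186 ± 25.6 in tko25t and 105 ± 19.6 in wild-type males (SD, n = 3 each), a log2 fold change of 0.77 (standard error 0.16, limma adjusted p = 0.0167). In females 0 of 6 passed limma, 0 of them at an unadjusted p under 0.05, and 0 were called by SAM, the permutation-based test of the study's methods. SAM was run with a 1.5-fold cutoff on the ratio of means, which no tested gene of this list reached in females. Where no gene reaches the cutoff, a SAM count of 0 is fixed in advance and says nothing of smaller differences. The median log2 fold change of the list was 0.03 in males and 0.01 in females, beside -0.01 and -0.04 for all probe sets tested, and the core subunit Cyt-c1, the electron acceptor of the Rieske protein, had 0.18 in males and 0.15 in females without passing. The Ttc19 call was lost without male tko25t replicate 1 (adjusted p = 0.0673), tko25t replicate 3 (0.0674) or wild-type replicate 2 (0.0507).

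Genes that assemble iron-sulfur clusters, the cofactor of the Rieske protein, showed 3 of 6 higher in tko25t males, 0 lower and 3 not passed, with a median log2 fold change of 0.64. They were bcn92, a small partner protein of the cysteine desulfurase, at a log2 fold change of 1.07 (standard error 0.17, limma adjusted p = 0.00693), the desulfurase Nfs1 itself, which supplies the sulfur, with 0.85 (standard error 0.11, limma adjusted p = 0.00315), and the ferredoxin Fdx1 with 0.79 (standard error 0.17, limma adjusted p = 0.0189). The scaffold protein IscU had 0.05 and did not pass. In females 0 of 6 passed limma, with 1 higher and 1 lower at an unadjusted p under 0.05 and 1 lower by SAM, and the median was 0.08. The study itself singles out Nfs1 and bcn92 in these samples, so these members are no independent evidence. The Fdx1 call was lost without male tko25t replicate 1 (adjusted p = 0.0665), tko25t replicate 3 (0.0709) or wild-type replicate 2 (0.0589). Without the 3 arrays with raised other-sex transcripts, which leaves 1 wild-type male array, the log2 fold changes were 1.02 for bcn92 (adjusted p = 0.112), 0.75 for Nfs1 (0.0821), 0.77 for Fdx1 (0.120) and 0.53 for Ttc19 (0.193), and none passed.

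Around teq, 27 genes of chitin binding and modification and 12 of olfactory memory were listed. Of the chitin genes 1 of 17 tested in males and 1 of 16 in females was higher in tko25t, and 0 were lower. It was in both sexes Peritrophin-15a, a chitin-binding protein of the gut lining, with log2 fold changes of 1.15 in males (standard error 0.16, limma adjusted p = 0.00401) and 1.54 in females (standard error 0.18, limma adjusted p = 0.00541). The study lists Peritrophin-15a among its most changed genes in these samples, so it is no independent evidence. The median of the chitin list was 0.23 in males and 0.25 in females. At an unadjusted p under 0.05, 1 chitin gene was higher in males and 5 in females, and 0 were lower. SAM called 1 higher in each sex. Of the memory genes, among them the cyclic AMP enzymes dnc and rut, 0 of 9 passed limma in males and 0 of 9 in females, with medians of 0.07 and -0.05. At an unadjusted p under 0.05 there were 1 in males and 0 in females. SAM called 0 in both, but no tested memory gene reached its 1.5-fold cutoff.

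Around lola, 14 other BTB transcription factor genes and 18 axon guidance genes were listed. Of the BTB factors 0 of 8 passed limma in males and 0 of 9 in females, with medians of 0.11 and -0.17 and, at an unadjusted p under 0.05, 0 in males and 1 lower in females. Among the guidance genes 0 of 9 passed in males and 0 of 11 in females, with medians of 0.20 and 0.09 and, unadjusted, 1 higher and 1 lower in males and 1 lower in females. SAM called 0 of either list, but no tested BTB factor reached its 1.5-fold cutoff. The receptor gene robo1, which lola is known to regulate in the embryo, had a log2 fold change of -0.22 in females without passing, and was under the filter in males.

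The genes beside each member on the chromosome were examined next. RFeSP lies on the left arm of chromosome 2, teq on the left arm of chromosome 3 and lola on the right arm of chromosome 2. Of the 5 protein-coding genes on each side of RFeSP, 0 of 6 tested passed limma in males and 0 of 6 in females, with 1 lower in males and 0 in females at an unadjusted p under 0.05. SAM called 0, but none of those tested reached its 1.5-fold cutoff. CG14352 overlaps RFeSP in the annotation and had 59.3 ± 10.3 in tko25t and 64.7 ± 5.14 in wild-type females (SD, n = 3 each), a log2 fold change of -0.11 (limma adjusted p = 0.797). Its male signals, 14.6 ± 6.29 in tko25t and 29.6 ± 14.5 in wild type, were under the filter.

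Around teq 2 of 8 genes tested in males passed limma, in opposite directions, and 0 of 7 in females. At an unadjusted p under 0.05, 2 were higher and 3 lower in males, and 1 was higher in females. SAM called 0 in both sexes, but no tested neighbour of teq reached its 1.5-fold cutoff, so this count was fixed in advance. CG32032, the gene next to teq, had a log2 fold change of 0.52 in males (standard error 0.13, limma adjusted p = 0.0311), and bol, an RNA-binding protein gene needed for meiosis in the male germ line, had -0.46 (standard error 0.10, limma adjusted p = 0.0174). The signal of bol was 519.8 ± 38.4 in tko25t and 719 ± 24.3 in wild-type males (SD, n = 3 each). Beside it, the summed signal of the 8 testis genes was 18817 to 24097 in tko25t and 24325 to 28514 in wild-type males, and the part of that difference in the bol value was not tested. Both calls were lost with single arrays left out. For CG32032 they were male tko25t replicates 1 and 2 and wild-type replicates 2 and 3 (adjusted p = 0.0716 to 0.117), and for bol male tko25t replicates 1 and 3 and wild-type replicate 2 (adjusted p = 0.0515 to 0.0581). Around lola 0 of 8 passed limma in males and 0 of 9 in females, with 1 higher in males and 1 lower in females at an unadjusted p under 0.05. SAM called 0, but none of these neighbours reached its 1.5-fold cutoff. Their log2 fold changes lay between -0.44, in psq, and 0.25.

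**Figure D5:**
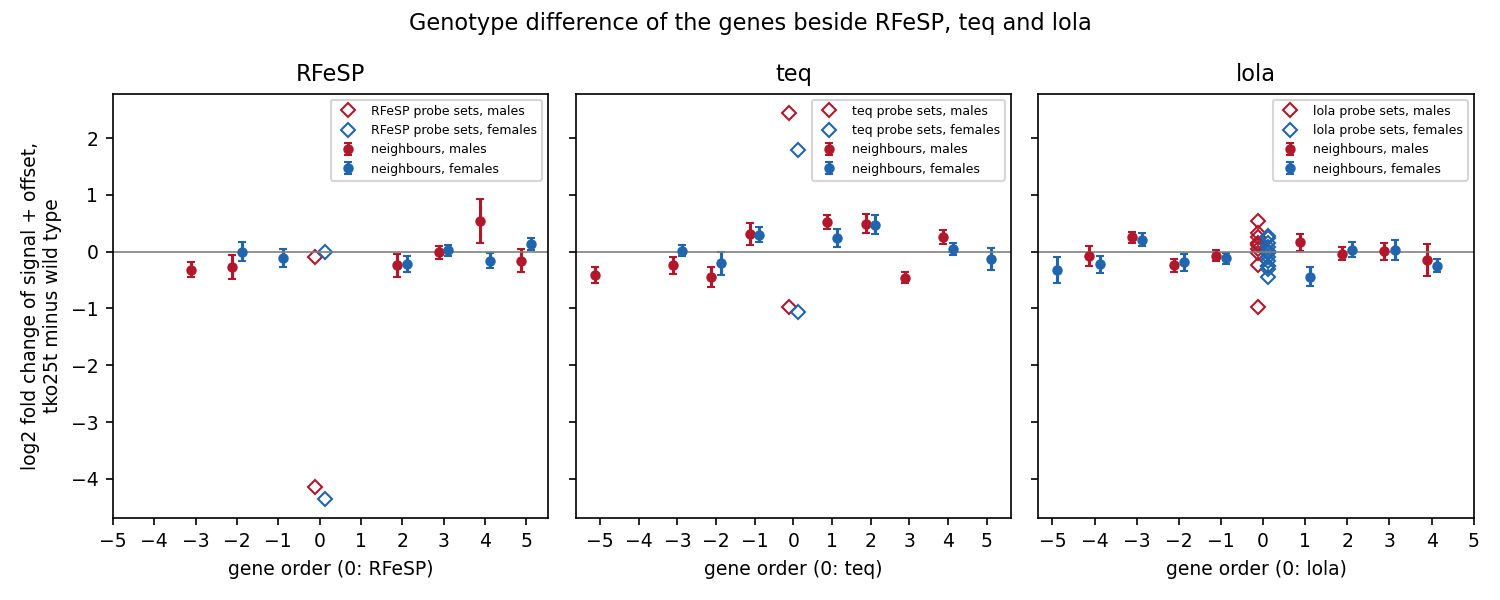
Log2 fold change (tko25t minus wild type, signal plus offset) of the tested genes among the 5 on each side of RFeSP, teq and lola, by their order on the chromosome, with the standard error, and of the tested probe sets of the genes themselves at 0 (diamonds). Every neighbour lies between -0.46 and 0.54, while RFeSP reaches -4.35 and teq runs from -1.06 to 2.45.

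For each gene the probe set with the widest genotype difference was compared with all others over the 12 arrays. Closest to RFeSP 1641174_at were CG5532 (Pearson correlation 0.96), the cytochrome P450 gene Cyp6t1 (0.93) and CG8768 (0.93), whose own log2 fold changes were -0.42, -1.61 and -0.52 in males and -0.40, -0.94 and -0.53 in females. Closest to teq 1626427_a_at were PheRS-m, the mitochondrial phenylalanyl-tRNA synthetase (0.97), the eye pigment transporter st (0.96) and alpha-Est5 (0.95). Closest to lola 1624729_at were IA-2 (0.92), caps (0.90) and FASN3 (0.90), a tyrosine phosphatase-like protein, a cell surface protein and a fatty acid synthase. They were found by searching the same 12 arrays and are a description of likeness, with no test.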

How the data were processed

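The deposited values are MAS5 intensities (signal, linear scale) that the authors computed from Affymetrix Drosophila Genome 2.0 arrays with the GCOS software and scaled array by array. They were used without further scaling, for 12 arrays and 18952 probe sets, of which 183 are controls. Detection p-values were not used here. In their place probe sets were ranked by mean signal in each sex and the top 53% (males) and 52% (females) tested, down to mean signals of 43.7 and 34.0. In the platform annotation 13647 probe sets have 1 gene symbol, 402 have several and 4720 have none. Names, neighbours and transcript numbers came from RefSeq (Release 6), with no coordinates used.

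log2(signal + 11.6) was tested with limma 3.58.1 (R 4.3.3) with a variance trend: tko25t minus wild type within a sex on 6 arrays, and male minus female on 12 arrays, with diffSplice for probe sets of 1 gene. The offset is the median over arrays of the 25th percentile of signal. Benjamini-Hochberg adjustment ran over all probe sets tested, with a call at 0.05. Folds are ratios of mean signals. A gene of a list was represented by its probe set with the highest mean signal. Named genes are all member probe sets, at most 3 called genes of a list, called neighbours, and the 3 probe sets most like each member. Cyt-c1, IscU, dnc, rut, robo1, CG14352, psq, CG5953, BtbVII and gkt are outside this rule and were chosen after their values were seen. The members and lists were chosen with earlier results of these data known. Alternatives were other offsets, quantile normalization, no filter, a replicate block, single genotypes, single arrays left out, 3 arrays left out, and SAM as in the study's methods, with its 1.5-fold cutoff. Arrays of the same replicate number did not deviate together throughout (correlations from -0.11 to 0.37), so numbers were not taken as pairs. Between the female genotypes the correlations were 0.33 and 0.37 for replicates 2 and 3 and -0.004 for replicate 1. With a replicate block the female genotype calls rose from 202 to 327, and whether these arrays share a batch was not tested. The fits were tested on simulated data. Tables and figures used Python 3.11.15, pandas 2.3.3, numpy 2.4.6 and matplotlib 3.10.9. The number of arrays limits the precision, and no sequence is printed. One probe set that teq shares with another gene is not reported here.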

Additional observations from a re-analysis of the deposited data

Results flagged for a closer look

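bcn92, the partner of the cysteine desulfurase, had a different genotype effect in the sexes. The study maps it to the X chromosome, which carries tko, so sequence inherited with the mutation cannot be told apart from the mutation. Its log2 fold change (tko25t minus wild type) was 1.07 in males, with signals of 355 ± 101 in tko25t and 159 ± 5.60 in wild type, and -0.72 in females, with 309 ± 55.9 in tko25t and 516 ± 92.2 in wild type (SD, n = 3 each). The male minus female difference of these effects was 1.79 on the log2 scale (limma interaction, adjusted p = 0.0434 over the 11566 probe sets tested). It did not pass without the filter on signal (adjusted p = 0.0510) or when 1 of 8 arrays was left out, male or female tko25t replicate 2 or 3 and male or female wild-type replicate 1 or 2 (adjusted p = 0.0557 to 0.137), nor without the 3 arrays with raised other-sex transcripts (1.87, adjusted p = 0.121), where 1 male wild-type array is left and the difference was no smaller. The study itself singles out bcn92 in these samples, so this is no independent evidence.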

How the results depend on the processing

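For sex, 8 or 9 lola probe sets were called with 1 array left out, and 12 departed from the rest of the gene each time. Over all probe sets, the 570 relative sex effects became 913 with no filter and 349 in tko25t arrays alone, and 506 to 580 with an array left out. The spread over probe sets was 4.67 (RFeSP) and 3.83 (teq) with an offset of 2.9 and 3.18 and 2.12 with one of 46.4, and with an array left out 4.13 to 4.27, 3.02 to 3.24 and 0.92 to 1.33 (lola). Genotype calls in males, 1124, were 604 by SAM, 169 without the 3 arrays with raised other-sex transcripts, a setting with 1 male wild-type array left (107 higher and 62 lower, against 556 and 568) and 436 to 796 with an array left out. In females the 202 calls were 130 with no filter, 327 with the replicate block, 129 without those 3 arrays and 53 to 457 with an array left out, with 142 higher and 60 lower becoming 31 and 22 without tko25t replicate 3 and 164 and 39 without wild-type replicate 3. List genes called were 5 in males (1 without the 3 arrays, 3 to 5 with an array left out) and 1 in females (2 with no filter, the replicate block or SAM, 1 to 4 with an array left out). Neighbours called were 2 in males (0 without the 3 arrays or by SAM, 0 to 2 with an array left out) and 0 in females (0 to 1). No tested neighbour reached the 1.5-fold cutoff of SAM. With the replicate block, 9030 sex effects were called against 9065, and no sex call of a member was changed. No called value changed direction under these alternatives. Signals near the lower quartile, as in tko25t for RFeSP 1641174_at and in wild type for teq 1626427_a_at, bound what their folds can show.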
